A study of Mus musculus with 11 samples.

Results

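The change from 8 to 12 h in 3T3-L1 preadipocytes given linoleic acid (LA) was followed in 4 of the 11 arrays of the study, the 2 arrays labelled LA at 12 h and the 2 labelled LA at 8 h. 3T3-L1 cells are mouse fibroblasts that hormones can turn into fat cells, and the labels name the cultures preadipocytes. The study set cells given t10c12 conjugated linoleic acid (CLA) against cells given LA, the control fatty acid and an isomer of CLA, at 4, 8 and 12 h, and the labels give no dose and no untreated cells. The other arrays used below were 2 of CLA at 12 h, 2 of CLA at 8 h, 1 of LA at 4 h and 2 of CLA at 4 h. All groups were the same cell line grown with an added fatty acid, so a change between 8 and 12 h may come with time in culture as well as with LA, and these cannot be told apart. Replicates are labelled as biological, but no label says they were grown as separate cultures, so the p-values speak only for the spread among these arrays, which may be technical.

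Linoleic acid is an essential fatty acid that cells take up, build into membrane and storage lipids, oxidise in mitochondria and can sense through the PPAR nuclear receptors. Preadipocytes secrete matrix proteins and chemokines, respond to TGF-beta, BMP and IGF1 through receptors at the cell surface, and keep the adipocyte programme low until hormones induce it. Cells in culture also adjust to their medium over hours: the transcription factor ATF4 raises genes of amino acid synthesis and tRNA charging when amino acids run short or the endoplasmic reticulum (ER) is stressed, and actin-linked transcription raises smooth muscle genes as cells spread and contract.

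Transcript levels changed widely between the 2 times, and the falls were larger than the rises. Of 12428 genes tested, 1364 were higher and 1411 lower at 12 h than at 8 h (11% and 11.4% of all genes, limma with Benjamini-Hochberg adjustment at 0.05). The median log2 difference was 0.51 among the genes called higher and -0.72 among those called lower, beside 0.13 over all genes tested. A gene is called higher or lower below where this adjusted p was under 0.05, its levels are quantile-normalised intensities per array, which are not comparable between genes, and its differences are on the log2 scale. Among the brighter 6214 genes, those at or above the median level, only 4 called genes rose by at least 1 on the log2 scale, whereas 215 fell by at least that much. The arrays of the 2 times did not overlap for 68.2% of all genes tested. Genes named below were mostly picked for small p-values or large changes in this contrast, so such separation in them adds no support. Most of the called genes reached a level at 12 h that no other array had. Both LA 12 h arrays lay below all 9 other arrays for 1167 of the 1411 genes called lower (12.8% of all genes tested lay so). They lay above all 9 others for 1119 of the 1364 called higher (25.2% of all genes). The 9 others include the 2 LA 8 h arrays used for the calls, so part of this excess follows from the calling.

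The split between rises and falls depended on how the arrays were scaled, and the falls depended on it less. After scaling all arrays to a common median, 411 genes were called higher and 1168 lower. Other ways gave more higher than lower calls: 1582 and 1504 with cyclic loess, and 2460 and 1670 with the 4 LA arrays normalised and fitted alone. With the intensities as deposited, 32 were called higher and 1753 lower, and the median of all genes moved to -0.19. List medians given below as deposited stand beside this value, so a negative one need not lie below all genes. Leaving out 1 LA array left 797 genes called without replicate 2 of LA 8 h, 1095 without replicate 1 of LA 8 h, 1187 without replicate 2 of LA 12 h and 1310 without replicate 1 of LA 12 h. Lower calls outnumbered higher calls in all 4 of these fits. The plot of calls by setting shows both bars for each way of processing.

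**Figure D1:**
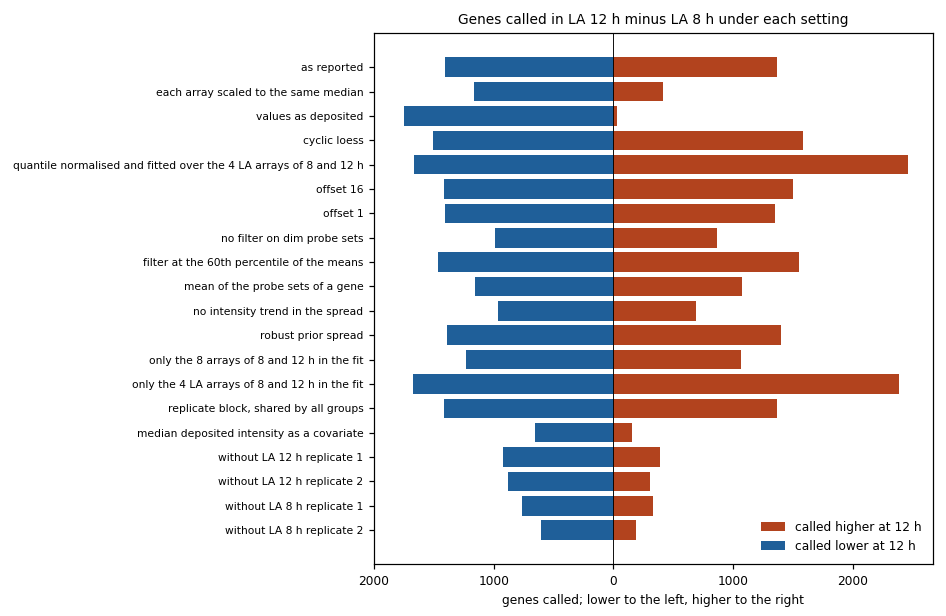
Number of genes called higher (right) and lower (left) at 12 h than at 8 h in LA cells, for the reported analysis (top) and each alternative. The lower calls reach 1753 with the intensities as deposited, where the higher calls fall to 32. The higher calls reach 2460, above 1670 lower, with the 4 LA arrays normalised and fitted alone.

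The 4 LA arrays differed in brightness as well as in time. The median deposited intensity was 11.6 and 10.6 on the LA 12 h arrays, 13.9 and 14.3 on the LA 8 h arrays, and 12.8 to 20.1 on the other 7. With this median as a covariate in the fit, 154 genes were called higher and 657 lower. The 3' to 5' signal ratio of the GAPDH control, a measure of RNA integrity, was 0.983 and 1.18 at 12 h and 1.01 and 1.02 at 8 h, and the beta-actin ratio was 1.55 and 1.59 at 12 h and 1.63 on both arrays at 8 h. The 18S rRNA probe set read 503 and 2533 at 12 h against 413 and 347 at 8 h, so that replicate 2 of LA 12 h stood above the other LA arrays. Replicate 2 of CLA 12 h was high as well, at 2050, beside 311 in replicate 1. Replicates correlated at r = 0.970 at 12 h and 0.976 at 8 h across genes, and no replicate pair held identical values. The part of brightness and RNA quality in the changes was not tested beyond these fits.

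Most fibroblast markers passed the filter on dim genes. Sums over a list are carried by its brightest probe sets and are not comparable between lists. Of 13 preadipocyte and fibroblast markers on the array, 12 passed the filter on dim genes and Cd34 was at background, and the summed intensity of the list was 54472 and 53685 at 12 h against 54872 and 57232 at 8 h. Adipocyte markers summed to 322 and 312 at 12 h against 379 and 389 at 8 h, with Cidec, Lep, Pck1 and Retn at background. Most of that sum was Fabp4, while of the 5 adipocyte markers tested 2 were called higher and 1, Fabp4, lower (median 0.26, and -0.13 as deposited), and 0 to 1 were called higher when 1 LA array was left out. Pparg, the main adipogenic nuclear receptor, had 35.8 and 51.6 at 12 h against 15.1 and 20.7 at 8 h, and Cebpa, its partner factor, 31.3 and 33.0 against 14.9 and 3.68. Macrophage markers summed to 747 and 711 against 727 and 742, with Itgam, Ptprc and Tyrobp at background. Most of that sum was Cd14, at 451 and 410 at 12 h against 486 and 481 at 8 h. Endothelial markers summed to 31.5 and 43.6 against 36.8 and 40.9, with 7 of 9 at background. Skeletal muscle markers summed to 200 and 218 at 12 h against 139 and 107 at 8 h, with Myf5, Myh3, Myog and Tnnt1 at background, and osteoblast and chondrocyte markers to 348 and 424 against 373 and 397, with Ibsp at background. In such bulk RNA, fewer cells of a type and less RNA per cell cannot be told apart.

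The 12 largest rises among the brighter genes included contractile, amino acid and secreted-factor genes. A gene entered this set only if its arrays of the 2 times did not overlap, so that separation is no result of its own. Tagln, which encodes the actin-binding protein transgelin, had 1570 and 1508 in LA cells at 12 h, against 825 and 819 at 8 h. The single LA array of 4 h read 97.9, so the gene was higher at each later time. The difference from 8 to 12 h was 0.90 ± 0.11 (log2, SE; adjusted p = 0.000416). Ccl17, a chemokine that attracts T cells, had 395 and 398 at 12 h against 186 and 199 at 8 h, with 47.8 at 4 h. Anxa8, which encodes a calcium-dependent membrane-binding annexin, had 526 and 510 at 12 h against 263 and 249 at 8 h, with 58.8 at 4 h. The differences from 8 to 12 h were 1.04 ± 0.14 for Ccl17 (adjusted p = 0.000916) and 1.01 ± 0.11 for Anxa8 (adjusted p = 0.000326).

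Other genes of this set rose after 8 h without such an earlier climb. Acaa2, a mitochondrial thiolase of fatty acid oxidation, had 598 and 575 at 12 h against 310 and 281 at 8 h, and the LA array of 4 h read 310. Tmem86a, which encodes a lysoplasmalogenase, had 313 and 334 at 12 h against 143 and 147 at 8 h, with 237 at 4 h. Slc9a3r2, a scaffold protein of the cell membrane, had 202 and 198 at 12 h against 87.0 and 93.5 at 8 h, with 260 at 4 h. Tmem86a and Slc9a3r2 thus had their lowest LA level at 8 h, and Slc9a3r2 was no higher at 12 h than on the 4 h array. Their differences from 8 to 12 h were 1.15 ± 0.15 for Tmem86a and 1.13 ± 0.12 for Slc9a3r2. Pop5, a subunit of ribonuclease P, rose by 0.90 on the log2 scale, and Kifc3, a kinesin motor that moves to microtubule minus ends, by 0.86. Fkbp11, a prolyl isomerase of the ER, rose by 0.90 on its brightest probe set, but another probe set of the gene gave -1.49.

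**Figure D2:**
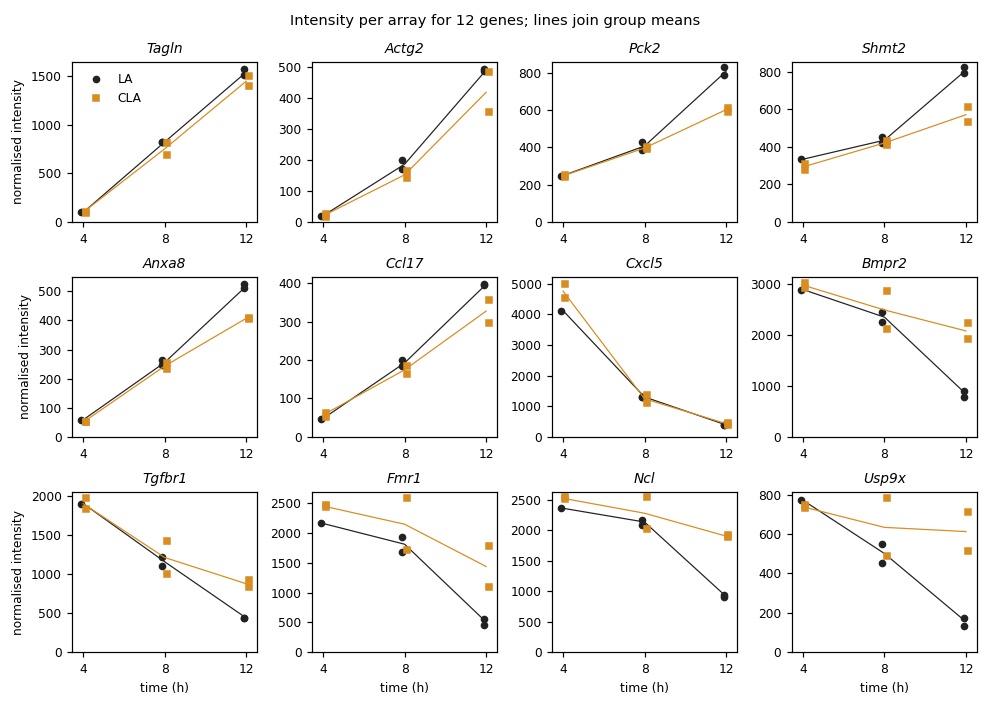
Normalised intensity per array (vertical axis, linear) at 4, 8 and 12 h for 12 genes in LA cells (black circles) and CLA cells (orange squares); points are arrays and lines join group means. Tagln, Actg2, Pck2, Shmt2, Anxa8 and Ccl17 are highest at 12 h in LA cells, and Bmpr2, Tgfbr1, Fmr1, Ncl and Usp9x are lower at 12 h in LA cells than on any other array shown.

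Several genes of amino acid synthesis that belong to the ATF4 response rose. Of 22 ATF4 response genes measured, 10 were called higher and 1 lower, and their median log2 difference was 0.46 beside 0.13 over all genes. Pck2, mitochondrial phosphoenolpyruvate carboxykinase, had 827 and 785 at 12 h against 426 and 387 at 8 h (0.99 ± 0.10, adjusted p = 0.000218). Shmt2, which turns serine into glycine and a one-carbon unit in mitochondria, had 825 and 793 at 12 h against 452 and 420 at 8 h (0.89 ± 0.11, adjusted p = 0.000438). Both genes had their lowest LA value at 4 h, 248 for Pck2 and 334 for Shmt2. The serine synthesis enzymes Psph and Phgdh rose by 0.84 ± 0.12 and 0.58 ± 0.08. Bcat1, the cytosolic branched-chain aminotransferase, had 804 and 910 at 12 h against 432 and 426 at 8 h, and 114 at 4 h. Ddit3 (CHOP), a transcription factor that ATF4 induces under strong stress, was not called, with 340 and 322 at 12 h against 314 and 313 at 8 h (0.08 ± 0.11, adjusted p = 0.628).

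Among genes that charge tRNAs, too, more were called higher than lower. Of 19 cytosolic aminoacyl-tRNA synthetases 8 were called higher and 1 lower, with a median of 0.28. Wars, for tryptophan, had 243 and 230 at 12 h against 147 and 135 at 8 h, and Vars, for valine, had 311 and 298 at 12 h against 181 and 186 at 8 h. Both had 12 h arrays above both 8 h arrays, which their choice by p-value makes likely. The differences were 0.74 ± 0.14 for Wars (limma, adjusted p = 0.0053) and 0.73 ± 0.14 for Vars (adjusted p = 0.00504). Slc7a5, the light chain of the LAT1 transporter of large neutral amino acids, rose by 0.72 ± 0.10, among 14 measured transporters of which 2 were called higher and 1 lower. Without replicate 2 of LA 8 h, 4 of the ATF4 genes and 1 of the synthetases were called higher, and Wars was not called (adjusted p = 0.0599). With the intensities as deposited, the synthetase median was 0.01 with 0 called higher in limma (p adjusted over all genes), and that of the ATF4 genes was 0.23 with 3 called higher.

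The promoters of these genes are shown because ATF4, with a C/EBP partner, binds a composite element that was searched for as TGATGNAA on both strands from 250 bases before to 50 bases after each gene's start. The sequences are those of RefSeq, build GRCm38.p6, cut to 100 bases in the direction of the gene, with the matching letters in capitals. Asns, Chac1 and Nupr1 were chosen for display after their values were seen. Asns makes asparagine, Chac1 breaks down glutathione and Nupr1 is a small chromatin-associated stress protein.
Asns (chr6:7693179-7693278, minus strand): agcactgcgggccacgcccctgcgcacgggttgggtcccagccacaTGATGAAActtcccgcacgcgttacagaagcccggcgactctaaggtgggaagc
Chac1 (chr2:119351003-119351102, plus strand): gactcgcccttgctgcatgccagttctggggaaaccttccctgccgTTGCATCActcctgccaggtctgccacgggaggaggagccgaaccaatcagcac
Pck2 (chr14:55540117-55540216, plus strand): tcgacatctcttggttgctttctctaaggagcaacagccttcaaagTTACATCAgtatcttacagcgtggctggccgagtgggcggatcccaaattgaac
Nupr1 (chr7:126625527-126625626, minus strand): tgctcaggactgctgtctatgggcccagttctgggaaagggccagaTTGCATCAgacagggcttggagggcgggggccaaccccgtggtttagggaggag

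The genes with this element did not all move one way. Asns had 2855 and 2858 at 12 h against 1773 and 1575 at 8 h (0.77 ± 0.15), and Chac1 had 536 and 596 against 396 and 367 (0.57 ± 0.13). Nupr1, whose promoter holds the element too, had 987 and 844 at 12 h against 1273 and 1286 at 8 h (-0.49 ± 0.10). Asns lost its call without replicate 2 of LA 8 h (adjusted p = 0.0545), Nupr1 without replicate 2 of either time, and Chac1 in 3 of the 4 fits that leave out an LA array, all but the one without replicate 1 of LA 12 h. All 22 ATF4 genes matched a promoter by symbol, and 7 held the element, 4 of the 10 called higher, the 1 called lower and 2 of the 11 not called. Over all 27025 promoters the share was 4.51%, among the genes tested 2.82%, and among those called higher or lower 2.54% and 2.61%. The list was made of ATF4 response genes, so a higher share in it is partly built in.

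ER chaperone and unfolded protein response genes moved in both directions. Of 24 measured, 10 were called higher and 4 lower, with a median of 0.22. Creld2, a secreted disulfide isomerase, had 915 and 868 at 12 h against 529 and 475 at 8 h (0.83 ± 0.13, adjusted p = 0.00191), and Manf, a protein the stressed ER secretes, had 3604 and 3329 against 2676 and 2682 (0.37 ± 0.06). Dnajc3, a co-chaperone that also restrains the kinase PERK, had 664 and 513 at 12 h against 1055 and 1158 at 8 h (-0.92 ± 0.14, adjusted p = 0.00146), and Hsp90b1, the ER form of HSP90, had 2007 and 1987 against 2871 and 2933 (-0.54 ± 0.10). The 2 times did not overlap in any of these 4 genes, which were picked by p-value, nor in 68.2% of all genes tested. Hspa5 (BiP), the main ER chaperone, had 5238 and 6012 at 12 h against 5763 and 5506 at 8 h, so that the times overlapped (-0.01 ± 0.07). With the intensities as deposited the list's median was 0.01, with 1 member called higher and 4 lower, and without replicate 1 of LA 8 h 4 were called higher and 3 lower.

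The same promoter element stood in members that rose, members that fell and a member that was not called. The ER stress element, bound by ATF6 with the factor NF-Y, was searched for on both strands in the same windows. Its letters were CCAAT, then 9 bases of any kind, then CCACG. The 100 bases around the first match are shown for 1 gene that rose, 2 that fell and Hspa5. Hsp90b1 held 2 matches, and the second lies outside the bases shown.
Creld2 (chr15:88819479-88819578, plus strand): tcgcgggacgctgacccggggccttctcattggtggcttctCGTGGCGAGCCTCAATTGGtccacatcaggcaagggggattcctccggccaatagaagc
Dnajc3 (chr14:118937786-118937885, plus strand): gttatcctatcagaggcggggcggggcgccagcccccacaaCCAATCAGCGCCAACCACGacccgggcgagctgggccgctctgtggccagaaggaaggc
Hsp90b1 (chr10:86705595-86705694, minus strand): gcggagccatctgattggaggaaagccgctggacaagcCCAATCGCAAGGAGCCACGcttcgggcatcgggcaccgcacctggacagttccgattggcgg
Hspa5 (chr2:34771984-34772083, plus strand): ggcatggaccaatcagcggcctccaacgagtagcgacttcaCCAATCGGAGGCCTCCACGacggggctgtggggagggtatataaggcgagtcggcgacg
Of the 24 ER genes, 20 matched a promoter and 8 of these held the element. Those 8 were 4 of the 8 called higher, 3 of the 4 called lower and 1 of the 8 not called. Over all promoters 37 of 27025 held it (0.137%), and among the genes tested 0.139%. The list was made of genes of this response, so a higher share in it is partly built in.

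Among smooth muscle and actin genes the called members were higher at 12 h. Of 20 measured, 9 were called higher and 0 lower (limma, adjusted over all genes), with a median of 0.19, and 5 were called higher without replicate 1 of LA 12 h or replicate 2 of LA 8 h. With the intensities as deposited 3 were called higher and 1 lower, and with the probe sets of a gene averaged 6 and 1. Actg2, the gamma actin of smooth muscle, had 491 and 487 at 12 h against 200 and 171 at 8 h (1.39 ± 0.21, adjusted p = 0.00131). The LA array of 4 h read 19.9, so Actg2 followed the course of Tagln. Myl9, a myosin regulatory light chain, had 1104 and 948 at 12 h against 548 and 581 at 8 h, and Flna, which crosslinks actin filaments, had 3955 and 3824 against 2915 and 2956. All 4 of these genes had 12 h arrays above both 8 h arrays, which their choice by p-value or size makes likely.

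More genes of energy metabolism were called higher than lower. Of 18 glycolysis and hypoxia genes, 8 were called higher and 1 lower (median 0.22), with Tpi1 at 4227 and 4073 at 12 h against 2997 and 3244 at 8 h (0.41 ± 0.06), Pgk1 up by 0.28 ± 0.06 and Pkm by 0.46 ± 0.09. These encode triosephosphate isomerase, phosphoglycerate kinase and pyruvate kinase. Hk2, the inducible hexokinase at the head of the pathway, went the other way, with 596 and 689 at 12 h against 937 and 906 at 8 h (-0.52 ± 0.15, adjusted p = 0.0323), a call lost in each of the 4 fits that leave out an LA array (adjusted p up to 0.178). Of 69 respiratory chain and ATP synthase subunits, 17 were called higher and 1 lower (median 0.15). Cyc1, cytochrome c1 of complex III, had 1843 and 1861 at 12 h against 1452 and 1422 at 8 h. Leaving out 1 LA array left 2 to 3 glycolysis genes and 1 to 6 respiratory genes called higher. The calls of Pkm without replicate 1 of LA 8 h (adjusted p = 0.0515) and of Cyc1 without replicate 2 of LA 8 h (adjusted p = 0.0522) were lost. With the intensities as deposited the glycolysis median was 0.02 and the respiratory median -0.05, beside -0.19 over all genes, each with 0 called higher in limma. The sign of the respiratory median thus changed with the scaling. In the reported fit it lay near that of all genes, 0.15 beside 0.13, with 37 of 69 members above the latter. Without replicate 1 of LA 12 h it lay below all genes, 0.131 beside 0.140. Taldo1, transaldolase of the pentose phosphate pathway, rose by 0.74 ± 0.12, one of 7 NRF2-linked genes called higher of 23, with 2 called lower. Of these 23, 1 to 2 were higher and 0 to 1 lower when 1 LA array was left out, and 0 higher and 3 lower as deposited (limma).

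Fatty acid handling genes moved in both directions. Of 27 fatty acid oxidation and PPAR target genes, 6 were called higher and 2 lower (median 0.26, and -0.05 as deposited), and 2 to 5 higher when 1 LA array was left out. Ppara, the nuclear receptor that fatty acids activate, had 47.5 and 48.7 at 12 h against 7.25 and 6.64 at 8 h, where it was not above background, so it was at least 4.65-fold higher (adjusted p = 0.000408). It read 33.8 on the LA array of 4 h. Etfa, which passes electrons from acyl-CoA dehydrogenases to the respiratory chain, fell by 0.48 on the log2 scale, and Fabp4, a fatty acid carrier of adipocytes, had 188 and 174 at 12 h against 299 and 302 at 8 h (-0.73 ± 0.13). Angptl4 and Pdk4, both PPAR targets, did not pass: Angptl4 had 1757 and 1763 at 12 h against 1413 and 1384 at 8 h (0.33 ± 0.12, adjusted p = 0.0763), and Pdk4 had 143 and 167 against 190 and 186 (-0.28 ± 0.14, adjusted p = 0.166).

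Among 20 fatty acid and triglyceride synthesis genes, 2 were called higher and 3 lower (10% and 15%), near the 11% and 11.4% of all genes. Their median was 0.18 beside 0.13 over all genes, and -0.12 beside -0.19 as deposited. The 3 called lower encode enzymes that activate or lengthen fatty acids, but so few calls describe single genes and not the list. Acsl4, an acyl-CoA synthetase that favours arachidonic acid, had 507 and 431 at 12 h against 1102 and 1103 at 8 h (-1.24 ± 0.14, adjusted p = 0.000383). Elovl6, an elongase, fell by 0.94 ± 0.13 on the log2 scale, and Acsl3, an acyl-CoA synthetase of lipid droplets, fell by 0.69 ± 0.12. All 3 calls held in the 4 fits that leave out an LA array. Scd1, the stearoyl-CoA desaturase, had 710 and 607 at 12 h against 649 and 695 at 8 h, with overlapping times (-0.03 ± 0.11). Of 20 cholesterol synthesis and uptake genes 2 were called higher and 5 lower (median 0.01), and 0 to 1 higher and 2 to 3 lower when 1 LA array was left out. Idi1, isopentenyl-diphosphate isomerase, had 358 and 364 at 12 h against 787 and 790 at 8 h (-1.12 ± 0.16), and Hmgcs1, HMG-CoA synthase, had 1669 and 1750 against 2544 and 2652 (-0.60 ± 0.08). On the LA array of 4 h these 2 genes were low as well, at 412 and 944, so 8 h was their highest time.

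The 12 largest falls among the brighter genes were steeper than any of the rises in that set. These genes too were taken only where the arrays of the 2 times did not overlap. Hook3, which links cargo to dynein on microtubules, had 94.0 and 65.2 in LA cells at 12 h, against 359 and 415 at 8 h (-2.27 ± 0.30, adjusted p = 0.000655). Rapgef6, an exchange factor for Rap GTPases, had 35.6 and 65.5 at 12 h against 219 and 264 at 8 h (-2.27 ± 0.25). Usp9x, a deubiquitinase, had 174 and 134 at 12 h against 454 and 549 at 8 h (-1.70 ± 0.22). In each of the 3 the lower 8 h array was above the higher 12 h array by more than the spread within either time. Med13, of the kinase module of Mediator, fell by 1.65 on the log2 scale, Map3k2, a MAP kinase kinase kinase, by 1.64, Lin7c, a polarity scaffold, by 1.63 and Tbc1d8b, a Rab GTPase-activating protein, by 1.59. Fmr1, an RNA-binding repressor of translation, had 555 and 455 at 12 h against 1691 and 1937 at 8 h (-1.84 ± 0.22), while its other probe sets gave -4.12 and 0.33. Vps37a, of the ESCRT-I sorting complex, fell by 1.63, but its other probe set gave 0.21. Pcmtd1 (-1.74) and Samd9l (-1.70) were the least secure: Pcmtd1 lost its call without replicate 2 of either time (adjusted p up to 0.0702), and Samd9l without replicate 2 of LA 12 h or replicate 1 of LA 8 h (adjusted p up to 0.0674).

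In the list of chemokine, cytokine and NF-kB genes, which does not hold the Ccl17 described above, the called members were lower at 12 h. Of 27 measured, 8 were called lower and 0 higher (limma, adjusted over all genes), with a median of -0.10, and 5 to 6 were called lower when 1 LA array was left out. Cxcl5, a neutrophil attractant, had 389 and 398 at 12 h against 1306 on both arrays at 8 h (-1.73 ± 0.11, adjusted p = 8.87e-05). The LA array of 4 h read 4124, so Cxcl5 was lower at each later time. Cxcl1 had 211 and 270 at 12 h against 506 and 518 at 8 h, with 1884 at 4 h, and Ccl2, a monocyte attractant, had 1988 and 1661 against 3335 and 3584, with 5632 at 4 h. Both took the same course as Cxcl5. Nfkbiz, a nuclear co-regulator of NF-kB, fell by 1.09 ± 0.09 on the log2 scale. Il6 had 924 and 908 at 12 h against 1516 and 1574 at 8 h (-0.75 ± 0.14), but 914 at 4 h, so its highest time was 8 h. Of 20 interferon response genes only Ifit2, which blocks translation of foreign RNA, was called, with 56.6 and 51.1 at 12 h against 133 and 134 at 8 h.

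Several receptors for BMP and TGF-beta were lower at 12 h. Of 26 TGF-beta, BMP and Id genes, 8 were called lower and 3 higher (median -0.12), with 5 lower without replicate 1 of either time. Bmpr2, the type II BMP receptor, had 900 and 789 at 12 h against 2253 and 2457 at 8 h (-1.48 ± 0.13, adjusted p = 0.000192). Tgfbr1, the type I TGF-beta receptor, had 440 and 431 against 1097 and 1212 (-1.40 ± 0.14, adjusted p = 0.000218), and Bmpr1a, a type I BMP receptor, had 419 and 441 against 784 and 820 (-0.90 ± 0.09). Tgfbr3, the co-receptor betaglycan, had 2038 and 1977 at 12 h against 3070 and 3432 at 8 h. In these 4 genes every 12 h array was below every 8 h array and below the LA array of 4 h. The genes were picked by p-value, so their separation from 8 h is partly built in. Of 23 insulin and IGF signalling genes, 8 were called lower and 0 higher (limma; median -0.20), and 2 were called lower without replicate 2 of LA 8 h. Igf1 had 119 and 99.1 at 12 h against 297 and 342 at 8 h (-1.54 ± 0.24), although a second probe set gave 0.06. Pik3r1, the regulatory subunit of PI3-kinase, had 130 and 127 against 233 and 249.

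Nuclear RNA-binding and chromatin genes with long nuclear transcripts made up the list with the lowest median of the 36, -0.58. Of 36 measured, 15 were called lower and 0 higher (limma), and 5 to 7 were called lower when 1 LA array was left out. Chd9, a chromatin remodeller, had 121 and 120 at 12 h against 305 and 396 at 8 h (-1.51 ± 0.19), and Rbm25, a splicing regulator, had 112 and 122 against 237 and 260 (-1.07 ± 0.17). Kmt2e, a SET-domain chromatin protein, fell by 0.80 ± 0.11 on the log2 scale. Malat1, a nuclear long noncoding RNA, had 234 and 395 at 12 h against 801 and 802 at 8 h (-1.39 ± 0.30), with the 2 arrays of 12 h apart from each other. Its call was lost without replicate 1 of LA 12 h or either array of 8 h (adjusted p up to 0.0840), and another probe set gave 0.15. The median of this list was negative under all 19 alternatives run. The list was chosen with earlier results of these data known and the alternatives reuse the same arrays, so this sign is no independent support. Apart from the leave-outs, the fewest called lower were 4, with array brightness as a covariate (median -0.28). The most were 23, with only the 4 LA arrays in the fit (median -0.58).

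Splicing factors moved in both directions. Of 44 hnRNP, SR and SF3 genes, 17 were called lower and 8 higher (median -0.16), and 3 lower and 1 higher without replicate 2 of LA 8 h. Hnrnpa0 had 1586 and 1499 at 12 h against 2194 and 2227 at 8 h (-0.52 ± 0.06), and Hnrnpu, a nuclear matrix RNA-binding protein, had 1617 and 1570 against 2103 and 2255 (-0.45 ± 0.07). Sf3b5, a small subunit of the U2 snRNP, had 1467 and 1529 at 12 h against 1016 and 1072 at 8 h (0.52 ± 0.09). The times did not overlap in these 3, which were picked by p-value in this contrast. Of 38 RNA helicases 9 were called lower and 6 higher (median 0.04), but 5 to 7 lower and 0 to 1 higher when 1 LA array was left out, and 8 lower and 0 higher as deposited (limma). Ddx3x, which unwinds mRNA leaders, had 1921 and 2001 at 12 h against 3156 and 3385 at 8 h, and Dhx9 had 785 and 756 against 1211 and 1235.

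**Figure D3:**
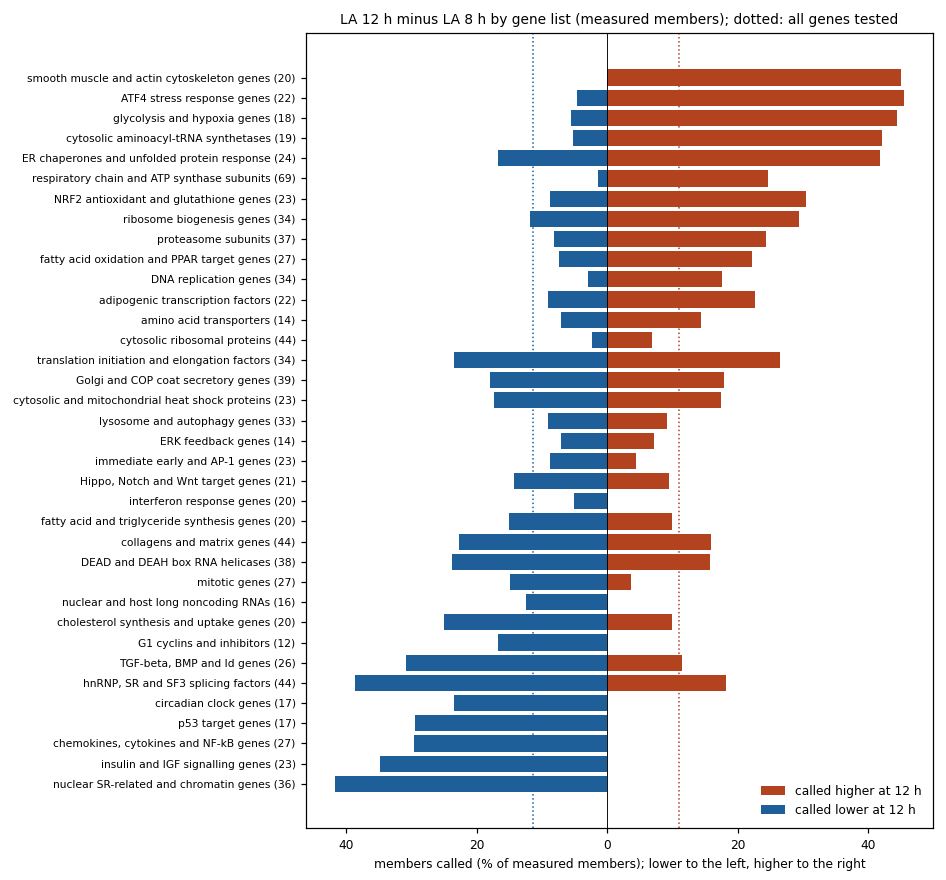
Share of the measured members of each list called higher (right) or lower (left) at 12 h than at 8 h in LA cells, sorted by the difference of the 2 shares, with the number measured in brackets; dotted lines mark the 11% higher and 11.4% lower of all genes tested. Smooth muscle, ATF4, glycolysis and synthetase lists stand at the top, and the nuclear SR-related and insulin lists at the bottom.

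Translation and ribosome assembly genes moved both ways. Of 34 initiation and elongation factors 9 were called higher and 8 lower, 3 to 5 and 5 to 7 when 1 LA array was left out, and 0 and 9 as deposited (limma). Eif5b and Eif3e, which act at subunit joining and in the scaffold eIF3, fell by 0.97 ± 0.14 and 0.56 ± 0.07 on the log2 scale, and Eif5, the GTPase activator of eIF2, had 649 and 643 at 12 h against 1055 and 1095 at 8 h. Of 34 ribosome biogenesis genes 10 were called higher and 4 lower (median 0.24, and -0.05 as deposited, with 0 higher and 4 lower by limma). Leaving out 1 LA array left 0 to 4 of these higher and 1 to 3 lower, the fewest without replicate 2 of LA 8 h. Ncl (nucleolin), an abundant nucleolar protein, had 899 and 930 at 12 h against 2096 and 2179 at 8 h (-1.22 ± 0.09, adjusted p = 0.000192). Bysl, needed to build the small ribosomal subunit, had 626 and 597 at 12 h against 430 and 377 at 8 h, a call lost without replicate 1 of LA 12 h or replicate 2 of LA 8 h (adjusted p up to 0.0970). Of 44 cytosolic ribosomal protein genes 3 were called higher and 1 lower, and their median was 0.02. Of 37 proteasome subunits 9 were called higher and 3 lower, and 5 were called higher without replicate 2 of LA 12 h but 0 (limma) without replicate 1 of LA 8 h.

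Of 23 heat shock genes 4 were called higher and 4 lower (median 0.10), but 0 to 1 higher and 2 lower when 1 LA array was left out, and 0 higher and 4 lower as deposited (limma). Hsp90aa1, the inducible cytosolic HSP90, had 986 and 905 at 12 h against 1959 and 1867 at 8 h (-1.02 ± 0.16, adjusted p = 0.00194), although a dimmer probe set gave 1.13. Dnajb4, an HSP40 co-chaperone, had 360 and 384 at 12 h against 744 and 727 at 8 h (-0.98 ± 0.13). The 2 times did not overlap in either gene, though both genes were picked by p-value in this contrast. Both calls held in the 4 fits that leave out an LA array.

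Of 17 p53 target genes, 5 were called lower and 0 higher (limma), with a median of 0.00, and 3 to 5 lower when 1 LA array was left out. Trp53inp1, a stress protein that promotes autophagy, had 106 and 99.7 at 12 h against 240 and 350 at 8 h, with 708 at 4 h (-1.48 ± 0.16). Ccng1, cyclin G1, had 1383 and 1398 against 2536 and 2569 (-0.88 ± 0.09), and Mdm2, the ubiquitin ligase of p53, fell by 0.43 ± 0.07 on the log2 scale. Cdkn1a (p21), a further p53 target, did not follow them, with 681 and 784 at 12 h against 577 and 585 at 8 h (0.33 ± 0.11, adjusted p = 0.0558), and another probe set gave -0.50.

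The shares of cell cycle genes called lay near or below the 22.3% of all genes tested. Of 34 DNA replication genes 6 were called higher and 1 lower (median 0.24, and -0.12 as deposited), and 0 to 1 were called higher when 1 LA array was left out. Cdt1, which loads the replicative helicase, had 447 and 515 at 12 h against 326 and 283 at 8 h, a call lost without replicate 2 of LA 8 h (adjusted p = 0.0584). Pola1, a DNA polymerase subunit, had 18.8 and 26.6 at 12 h against 58.8 and 56.9 at 8 h (-1.30 ± 0.25). Of 27 mitotic genes 1 was called higher and 4 lower (0 and 1 to 3 when 1 LA array was left out), and of 12 G1 cyclins and inhibitors 0 and 2 (limma). Cdk6, a G1 kinase, fell by 0.58 ± 0.11 on the log2 scale, while Ccnd1 (cyclin D1) had 539 and 557 at 12 h against 494 and 504 at 8 h (0.14 ± 0.09) and Myc had 287 and 256 against 236 and 227 (0.23 ± 0.13), neither called.

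Of 17 circadian clock genes 4 were called lower and 0 higher (limma; median -0.07). Clock had 123 and 115 at 12 h against 301 and 324 at 8 h (-1.38 ± 0.19, adjusted p = 0.00101). The nuclear receptors Rora and Nr1d2, which activate and repress the clock gene Arntl, had 88.3 and 78.3 at 12 h against 214 and 253 at 8 h for Rora and 102 and 88.8 against 199 and 202 for Nr1d2. Arntl itself, the partner of Clock, had 352 and 367 at 12 h against 379 and 375 at 8 h (-0.07 ± 0.10), although another probe set gave -0.95, and Per1 had 61.9 and 74.0 against 55.3 and 45.8 (0.42 ± 0.22), neither called. Per2 was near background, with 1.33 and 5.14 at 12 h against 10.8 and 8.31 at 8 h, and Dbp, a clock output factor, had 11.3 and 14.4 against 23.7 and 21.6 (-0.74 ± 0.30, adjusted p = 0.0993).

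Matrix genes and markers of the preadipocyte moved in both directions. Of 44 collagens and matrix genes 7 were called higher and 10 lower (median 0.02), but 2 to 5 and 3 to 6 when 1 LA array was left out, and 0 and 14 as deposited (limma). Lum (lumican), a proteoglycan that spaces collagen fibrils, had 42.1 and 42.4 at 12 h against 101 and 106 at 8 h (-1.26 ± 0.15, adjusted p = 0.000408), and Mmp13, a collagenase, fell by 0.81 ± 0.15 on the log2 scale. Tnc (tenascin C) had 2956 and 2919 at 12 h against 2211 and 2169 at 8 h, with 714 at 4 h, but another probe set gave -1.25. Col1a1, the chain of collagen I that gives fibroblasts much of their matrix, had 5223 and 4490 against 4369 and 4856, with overlapping times (0.07 ± 0.09). Pdgfra, a receptor that marks fibroblast progenitors, had 1545 and 1644 at 12 h against 2451 and 2498 at 8 h (-0.63 ± 0.07), and Thy1, a surface marker of fibroblasts, had 782 and 761 against 455 and 446 (0.77 ± 0.11). Dcn (decorin) fell by 0.68 ± 0.13, a call lost without replicate 2 of either time (adjusted p up to 0.0612). Of 22 adipogenic transcription factors 5 were called higher and 2 lower (median 0.23, and -0.12 as deposited), and 0 to 3 higher when 1 LA array was left out. Nr3c1, the glucocorticoid receptor, had 270 and 256 at 12 h against 536 and 605 at 8 h (-1.11 ± 0.17), and Klf9 had 535 and 603 against 1035 and 1086 (-0.90 ± 0.09). Lamp2, a lysosomal membrane protein, fell by 0.64 ± 0.05, one of 3 lower and 3 higher among 33 lysosome and autophagy genes, of which 1 was lower and 0 higher in each fit that leaves out an LA array (limma).

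The remaining lists stand beside 11% higher and 11.4% lower of all genes tested. Of 23 immediate early and AP-1 genes, 1 was called higher and 2 lower, and of 14 ERK feedback genes 1 and 1. Of 21 Hippo, Notch and Wnt target genes 2 were called higher and 3 lower, of 39 Golgi and COP coat genes 7 and 7 (1 to 5 and 2 to 5 when 1 LA array was left out), and of 16 nuclear and host long noncoding RNAs 0 and 2, with Malat1 one of these.

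The CLA cells passed from 8 to 12 h in the same study, and the 2 changes share no array. In CLA cells 50 of 12428 genes were called, 18 higher and 32 lower (0.402%, 0.145% and 0.257%), and 1274 had an unadjusted p under 0.05, against 4636 in LA cells. Of the 1364 genes called higher in LA cells, 1182 had a positive difference in CLA cells too, where 53.9% of all genes did. Of the 1411 called lower, 1180 had a negative difference in CLA cells, where 46.1% of all genes did. The differences in CLA cells were smaller, with medians of 0.16 over the genes called higher in LA cells and -0.15 over those called lower. These genes were picked for their change in LA cells, so a smaller change in CLA cells is partly built in.

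Some of the LA changes were as large in CLA cells. The LA difference of Tagln stood beside 0.95 in CLA cells (1496 and 1397 at 12 h against 693 and 811 at 8 h), and that of Actg2 beside 1.44. Cxcl5 fell in CLA cells to 402 and 470 at 12 h, against 1385 and 1109 at 8 h (-1.51, adjusted p = 0.000369). Myl9, Flna, Ccl17, Anxa8, Pck2, Psph and Slc7a5 were also called higher in CLA cells, and Nfkbiz, Tgfbr3 and Pdgfra were called lower. For Tagln the difference of the 2 changes was -0.04 ± 0.15 (log2, SE; 95% interval -0.38 to 0.29), for Actg2 it was -0.05 ± 0.29 (-0.69 to 0.60) and for Cxcl5 -0.22 ± 0.16 (-0.56 to 0.13), none of them called.

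Other changes differed between LA and CLA cells by the test of the difference itself, though this test was fragile. The LA change differed from the CLA change for 145 genes (1.17%), 6 more positive and 139 more negative in LA cells (0.0483% and 1.12%), and 1848 genes had an unadjusted p under 0.05. All 139 were also among those called lower in LA cells, where their median difference was -1.04 beside -0.10 in CLA cells. The 139 were picked for this very difference, so the 2 medians describe the selection and add no support. Hook3 had 575 and 313 in CLA cells at 12 h against 623 and 350 at 8 h, which gave a difference of the changes of -2.14 ± 0.42 (adjusted p = 0.0440). Usp9x had 714 and 513 in CLA cells at 12 h against 782 and 487 at 8 h (-1.67 ± 0.31), and Ncl had 1896 and 1916 against 2549 and 2016 (-0.97 ± 0.13, adjusted p = 0.0322). The CLA times overlapped for Hook3 and Usp9x. Both genes were taken only where the LA times did not overlap, so this contrast is partly built in. For Ncl both CLA arrays of 12 h lay below those of 8 h by less than the 2 arrays of 8 h lay apart. Bmpr2 had 2244 and 1925 in CLA cells at 12 h against 2866 and 2127 at 8 h (-1.23 ± 0.18), and Tgfbr1 915 and 832 against 1426 and 993 (-0.96 ± 0.20). Ppara had 13.1 and 16.5 in CLA cells at 12 h against 33.1 and 41.6 at 8 h, without a call there (adjusted p = 0.131), and its changes differed as well (adjusted p = 0.0239), with no size given because its LA arrays of 8 h were not above background.

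The number of such genes changed with the arrays in the fit. It was 0 without replicate 1 of LA 12 h or either replicate of LA 8 h (limma; 1637, 1449 and 1250 genes at an unadjusted p under 0.05), and 3 without replicate 2 of LA 12 h. Without replicate 1 of CLA 8 h the count was 914, without replicate 2 of CLA 8 h it was 2, and without replicates 1 and 2 of CLA 12 h it was 1 and 204. With only the 8 arrays of 8 and 12 h in the fit it was 0, with 1641 at an unadjusted p under 0.05. The plot of LA against CLA change shows the calls of the LA contrast over both.

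**Figure D4:**
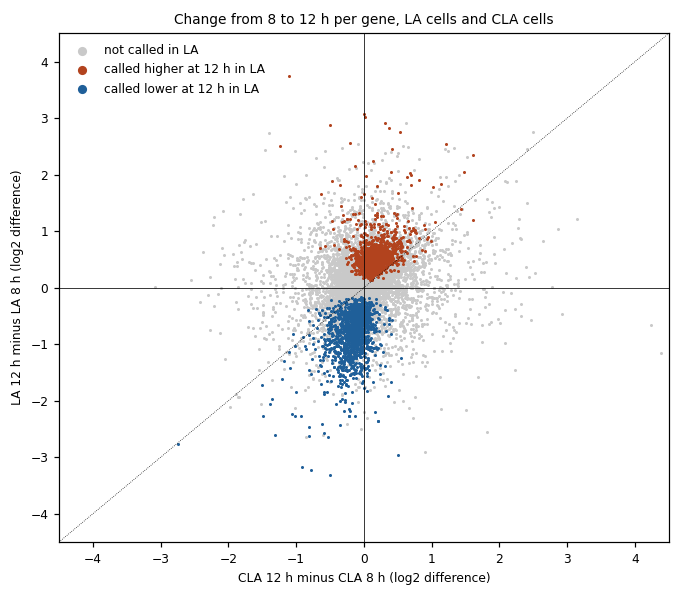
Log2 difference of 12 h minus 8 h per gene in LA cells (vertical) and CLA cells (horizontal) for the 12428 genes tested, coloured by the call in LA cells; the dotted line marks equal change. Most genes called lower in LA cells lie below 0 on both axes but under the line, with a median of -0.15 in CLA cells. The colours select on the LA change, so a smaller CLA change is partly built in.

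Between 4 and 8 h in LA cells, with a single array at 4 h and so without a spread of its own, the genes called higher from 8 to 12 h had a median difference of 0.09 and those called lower -0.12, beside 0.03 over all genes. On the first principal component, which held 35.6% of the variance over the 11 arrays, LA cells scored -40.5 at 4 h, 5.43 and 3.91 at 8 h and 48.9 and 49.1 at 12 h. CLA cells scored -43.2 and -38.3 at 4 h, -15.3 and 8.28 at 8 h and 5.15 and 16.5 at 12 h, so that the LA arrays of 12 h lay furthest from the 4 h arrays. Different probe sets of the same genes mostly moved alike: 86.1% of 1104 other probe sets of genes called higher and 87.2% of 2234 of genes called lower had the same sign, against 48.5% and 51.5% of all such probe sets in that direction.

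Of the 99 named genes called from 8 to 12 h, 86 kept their calls in all 4 fits that leave out 1 LA array, 29 of 36 called higher and 57 of 63 called lower. With the intensities as deposited 15 of the 36 higher and all 63 lower calls were kept. Scaled to the same median, 34 of 36 and 60 of 63 were kept. Named genes were mostly picked for large changes or small p-values in this same contrast. Their shares therefore do not carry over to all genes called. Over all 2775 calls, 1507 stayed called in the same direction with median scaling and 1425 as deposited.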

How the data were processed

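Total RNA of 3T3-L1 preadipocytes was hybridised to 1-colour Affymetrix arrays, per the labels' protocols. The deposited values are 1 intensity per probe set and array on a linear scale, partly below 0, so the authors had subtracted background, with software not given in the sources used here. Deposited tables of ratios combined by time were not used. Intensities were quantile normalised over 11 arrays, values below 0 set to 0, and log2(value + 1.84) taken, the offset being the 25th percentile, which understates changes of dim genes. The table held 45101 probe sets, of which 64 were array controls. Dim ones, with a mean of at most 7.81 (the 40th percentile of all values), were dropped with them. Of those other than controls, 34945 had 1 gene symbol in the platform annotation, 932 several and 9160 none, and 34741 matched a table of GRCm38.p6 genes by Entrez ID. The brightest probe set stood for a gene, giving 12428. Background was set at 8.89, the 95th percentile over 27 control probe sets without a spike. Where no array of a group exceeded it, the fold is a lower bound, taken against this level or the gene's own value if greater.

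Differences were tested in limma 3.58.1 (R 4.3.3) in 1 fit of 6 group means with an intensity trend, adjusted by Benjamini-Hochberg at 0.05 over all genes, and the fit was tested on simulated data. Errors are standard errors of log2 differences. The LA array of 4 h has no replicate and borrows the spread of the rest. The number of arrays limits the precision. Named genes were the 12 largest rises and falls among genes at or above the median level with non-overlapping arrays, up to 4 per list, the 5 largest differences between LA and CLA changes in each direction (4 positive ones passed), and 20 fixed genes, of which 16 were measured; not all genes the list rule allows are described. Members, the 36 gene lists and the 6 marker lists were chosen with earlier results of these data known. Lists carry no test. Alternatives changed the scaling, offset, filter, probe set rule, spread, arrays fitted, replicate block and a brightness covariate, and left out each array. The reported fit did not pair arrays by replicate number. Deviations from group means correlated at -0.04 to 0.07 between groups, the highest between LA and CLA cells at 12 h. Such values over all genes cannot show whether replicates of a time were handled together. With a replicate block set separately at each time, the 145 genes that differ between LA and CLA became 325.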

Additional observations from a re-analysis of the deposited data

Results flagged for a closer look

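The change from 8 to 12 h differed between LA cells and CLA cells for 145 genes by limma's interaction term, and 24 of these are named here, 19 with a more negative and 5 with a more positive change in LA cells. Each value is the LA change minus the CLA change on the log2 scale. Among genes of trafficking and signalling the values were -2.14 for Hook3, -2.05 for Rapgef6, -1.67 for Usp9x, -1.39 for Map3k2 and -1.47 for Tbc1d8b. Among receptors and nuclear factors they were -1.23 for Bmpr2, -0.96 for Tgfbr1, -0.65 for Bmpr1a, -1.44 for Chd9, -0.49 for Hnrnpu and -0.62 for Klf9. Chaperones gave -0.96 for Dnajc3 and -1.01 for Dnajb4, and lipid genes -1.07 for Acsl4 and -0.68 for Hmgcs1. For Eif5 the value was -0.80, for Ncl -0.97, for Ccng1 -0.61 and for Lamp2 -0.47.

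The positive values were 3.74 for Ppara, 0.81 for Slc9a3r2, 0.76 for Cdkn1a, 0.79 for Marcksl1 and 0.82 for Tsc22d4. That of Ppara is no measured size, since its LA arrays of 8 h were not above background and the value moves with the offset added before the logarithm. Marcksl1, an actin-binding protein, had 1572 and 1685 in LA cells at 12 h against 1027 and 1033 at 8 h, and 930 and 1057 in CLA cells at 12 h against 1192 and 988 at 8 h. Tsc22d4 had 1097 and 1230 in LA cells at 12 h against 989 and 933 at 8 h, and 558 and 629 in CLA cells at 12 h against 818 and 917 at 8 h. The LA arrays of the 2 times did not overlap for either gene, and only Tsc22d4 had CLA arrays that did not overlap.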

How the results depend on the processing

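The LA calls numbered 2775; the count was 1579 with arrays scaled to the same median, 1785 as deposited, 1650 without the intensity trend and 811 with array brightness as a covariate. It stayed within 1.5 times under the other 11 whole-data alternatives. Leaving out 1 LA array gave 797 to 1310. The 50 CLA calls became 10 with median scaling, 1 as deposited, 27 without the filter, 21 with probe sets averaged per gene, 4 without the trend and 21 with 8 arrays fitted, and 13 to 77 when 1 CLA array was left out. The 145 genes that differ between LA and CLA became 337 with median scaling, 38 as deposited, 246 with cyclic loess, 12 without the filter, 2 with mean probe sets, 1 without the trend, 0 with 8 arrays fitted (limma, 1641 at an unadjusted p under 0.05), 13 with the covariate and 325 with the replicate block set separately at each time, and 0 to 914 when 1 array was left out. A replicate block shared by all groups gave 2782, 48 and 213. The cause of these changes was not tested, beyond fewer arrays where arrays were left out.

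Of 2670 values of named genes under alternatives, 2259 kept direction and side of the threshold, 376 lost and 14 gained a call, and 21 reversed. With the mean of probe sets, Fkbp11 was -0.30, Ddit3 -0.53, Cdkn1a -0.0855, Tnc -0.41, Scd1 0.0539 and Hspa5 0.16. As deposited, Ddit3 was -0.28, Col1a1 -0.0873, Ccnd1 -0.18 and Myc -0.13. Vps37a was 0.22 when the 4 LA arrays were normalised alone, where another probe set led. Hspa5 was 0.16 with median scaling and 0.0441 with cyclic loess. With the covariate Arntl was 0.0076 and Col1a1 -0.0073. Leaving out 1 LA array gave -0.105 to 0.0938 for Hspa5, -0.146 to 0.0786 for Scd1 and -0.0367 to 0.181 for Col1a1. Dim genes near background have the least secure values.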
